A study of Drosophila melanogaster with 4 samples.

Results

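The long left arm of the third chromosome, 3L, carries 1316 of the 9474 regions of significant Su(var)3-7 enrichment in the list that combines both ChIP replicates, once the ends of the arm are set aside. A region was taken when it started above position 1000000 and below position 22543558 of 3L and was marked as enriched, so that the outer 1 Mb at the tip and the 2 Mb at the centromere end were left out. The stretch between these limits, called the 3L interior here, is 21.5 Mb long, or 87.8% of the arm sequence. Under the same limits the list of replicate 1 held 986 of 6780 regions and that of replicate 2 held 929 of 6658. In the combined list no region marked as depleted lay in the 3L interior, and depleted regions of the replicate lists were not counted.

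Su(var)3-7 is a protein with widely spaced zinc fingers that binds DNA and associates with HP1, the protein that reads methylated lysine 9 of histone H3. Both are best known from pericentric heterochromatin, where raising or lowering the dose of Su(var)3-7 changes how strongly a gene moved next to heterochromatin is silenced. On polytene chromosomes the protein marks the chromocentre most heavily. Euchromatin is the gene-rich sequence of the arms outside that compartment, and the 3L interior is made up mostly of it. No source used here says where along 3L euchromatin ends, so sequence near the inner limit may not be euchromatic.

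The data came from chromatin immunoprecipitation followed by sequencing (ChIP-seq) on nuclei from the heads of mixed adult Oregon-R flies, a wild-type laboratory strain, with the antibody Q3448. Heads of flies raised in population cages hold neurons, glia, photoreceptors, fat and other cells together, and a region list cannot show which of them a region comes from, nor can it check the tissue by markers. There were 2 ChIP libraries, each called against the input chromatin library of its own number, and the inputs, also 2, enter here only through those calls. Nothing in the labels says whether the replicates came from separate cages, so the spread between them may be technical. The lists give a position and a score for each region, not read counts, and library depth is therefore unknown. Positions are those of FlyBase release 5.

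Su(var)3-7 regions lay along the whole 3L interior, at 44.4 ± 1.87 regions per Mb (SD, n = 2). The density was 45.8 regions per Mb in replicate 1 and 43.1 in replicate 2. They covered 11.4% of the bases in replicate 1 and 10.7% in replicate 2, which makes 11.0% ± 0.486 (SD, n = 2), or 2.38 ± 0.105 Mb. The combined list was denser, with 61.1 regions per Mb and 15.5% of the bases covered. The first member of the combined list ran from 1006825 to 1008539 with a score of 0.297, and the last from 22521621 to 22522783 with a score of 0.387. Just outside the limits stood a region from 993366 to 995188 with a score of 0.324 and one from 22564371 to 22566790 with a score of 1.03.

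Regions had a median length of 2179 bp in replicate 1 and of 2155 bp in replicate 2, that is 2167 ± 17.0 bp (SD, n = 2). The middle of the distribution, between the 25th and 75th percentiles, lay between 1952 and 2748 bp in replicate 1 and between 1896 and 2642 bp in replicate 2. In the combined list the median was 2152 bp and the same range was wider, from 1677 to 2892 bp. The shortest region measured 1303 bp in each replicate list and 1001 bp in the combined list. Long regions were rare: 31 regions in replicate 1 and 39 in replicate 2 reached 5 kb, and they held 8.15% and 11.5% of the covered bases. Only 1 region in replicate 1, 4 in replicate 2 and 6 in the combined list reached 10 kb.

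Longer regions tended to have higher scores. The score is the authors' own value for a region; no source used here gives its scale, and scores were compared within a list or by rank. Its rank correlation with length was 0.684 over the 986 regions of replicate 1, 0.661 over the 929 of replicate 2 and 0.624 over the 1316 of the combined list (Spearman's rho, across regions of the same libraries, given as a description). The median score was 0.623 in replicate 1, with the 90th percentile at 1.34 and the highest value at 4.08. In replicate 2 the median was 0.581, the 90th percentile 1.23 and the highest value 3.71.

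Spacing along the arm was uneven, with many close neighbours and a tail of long gaps. Replicate 1 had a median gap, from the end of a region to the start of the next, of 8384 bp, and replicate 2 one of 8456 bp, which makes 8420 ± 50.6 bp (SD, n = 2). The mean gap, which the longest gaps raise, came to 19322 and 20643 bp in replicates 1 and 2. The coefficient of variation of the gaps was 1.54 in replicate 1 and 1.63 in replicate 2. Of the 985 gaps of replicate 1, 112 (11.4%) were under 1 kb, and of the 928 of replicate 2, 115 (12.4%) were. At the other end, 100 gaps of replicate 1 and 103 of replicate 2 were longer than 50 kb, and these took up 42.6% and 47.0% of the 3L interior.

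**Figure D1:**
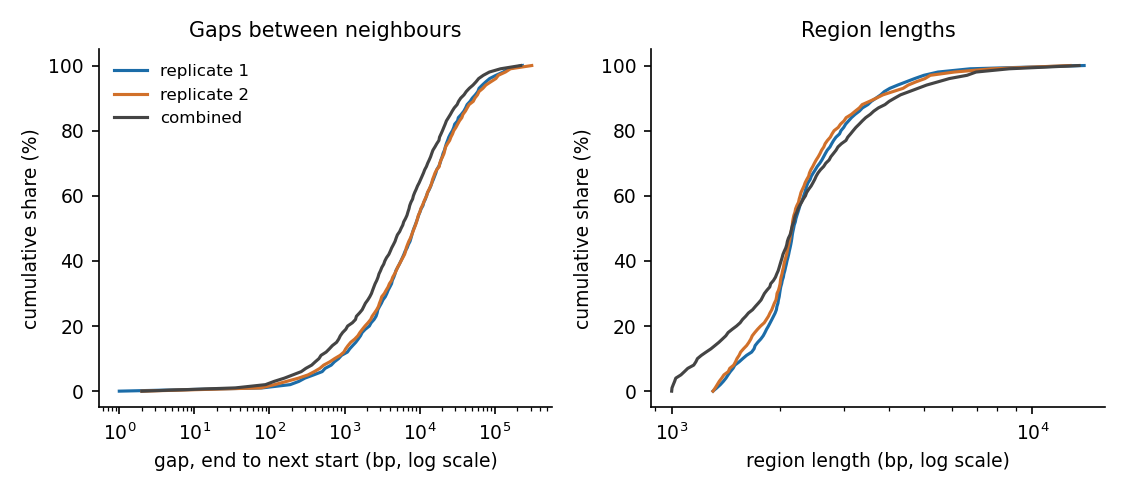
Cumulative share (%) of gaps between neighbouring regions (left, bp, log scale) and of region lengths (right, bp, log scale) on the 3L interior, 1 line per list. The replicate lines for gaps run together with medians of 8384 and 8456 bp, the combined list lies to their left at 5657 bp, and the combined list alone has lengths below 1303 bp.

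Close neighbours formed runs. With a gap of at most 5 kb counted as the same run, a distance chosen after the lists had been seen, the 986 regions of replicate 1 fell into 613 runs and the 929 of replicate 2 into 581. The most common run was a single region with no neighbour within that distance. Such lone regions were 406 of the 986 (41.2%) in replicate 1 and 389 of the 929 (41.9%) in replicate 2. Runs of at least 5 regions numbered 18 in each replicate and held 11.2% and 11.1% of the regions. Regions more than 20 kb from the next region on both sides numbered 95 in replicate 1 and 92 in replicate 2. Their median scores were 0.556 and 0.634, against 0.588 and 0.547 for regions in runs of at least 5, so the order turned between the replicates.

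Some of the largest runs overlapped between the replicates. In replicate 1 the largest had 12 regions from 9414132 to 9471208, a stretch of 57.1 kb of which replicate 1 covered 61.0% and replicate 2, with 11 regions, 51.2%. Replicate 2 had no run of more than 8 regions, so its 11 regions there did not form a single run. The next, with 8 regions, ran from 7315613 to 7355427, and the first run by size in replicate 2 ran from 7315774 to 7364277, also with 8 regions. In that stretch of 48.5 kb the covered share was 49.7% in replicate 1 and 51.7% in replicate 2. A further run from 21178329 to 21212472 had 8 regions in replicate 2, with 60.6% of its bases covered in replicate 1 and 72.0% in replicate 2. The third run by size in replicate 2, from 16771874 to 16802553, had 7 regions in replicate 2 and 4 in replicate 1. The combined list's largest run by number had 12 regions from 21485925 to 21539550, where replicate 1 had 9 and replicate 2 had 8.

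Cut into windows of 100 kb, the 3L interior had 215 windows. The median window was covered at 11.1% in replicate 1 and 9.71% in replicate 2, and the fullest at 43.9% and 39.6%. By the mean of the replicates, the 21 fullest windows held 22.9% of the covered bases and the 107 emptiest held 21.1%. The fullest was 3L from 9400001 to 9500000, with 43.9% and 38.1% covered by 16 regions in each replicate; it contains the largest run of replicate 1. The others of the 5 fullest lay nearer the centromere, and were 21800001 to 21900000 (30.1% and 36.8% in replicates 1 and 2), 20400001 to 20500000 (26.2% and 39.6%), 21000001 to 21100000 (31.5% and 30.5%) and 20300001 to 20400000 (27.0% and 33.5%). Windows at least 30% covered in both replicates numbered 3.

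Some stretches were empty in all lists. In 9 of the 215 windows neither replicate had a region, and in 6 of these the combined list had none either. Those 6 started at 6300001, 10900001, 13100001, 13600001, 14300001 and 18300001. The other 3, which started at 5400001, 15700001 and 18500001, held 3, 2 and 1 combined regions. The number of windows without a region was 12 in replicate 1 alone and 17 in replicate 2 alone. The longest stretch without a region in either replicate was 221.4 kb, from 6258877 to 6480281. The next were 194.9 kb from 13561542 to 13756447, 188.0 kb from 4907828 to 5095805, 158.9 kb from 13060870 to 13219813 and 156.8 kb from 15330611 to 15487442. Those of 194.9 and 158.9 kb each had 1 region of the combined list wholly inside, and the others named had none. Stretches of more than 100 kb empty in both replicates numbered 33 and made up 20.2% of the 3L interior.

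The longest gaps of the combined list fell mostly on the same stretches. Its 5 longest were 221.5 kb from 6258875 to 6480348, 187.9 kb from 4907871 to 5095803, 180.6 kb from 13575558 to 13756174, 180.4 kb from 14799214 to 14979587 and 157.0 kb from 15330614 to 15487599. The fourth of these held 2 regions of replicate 2 that the combined list does not have. Some gaps belonged to a single replicate. The longest gap of replicate 2, 311.0 kb from 18121403 to 18432355, held 2 regions of replicate 1 and 7 of the combined list. The longest of replicate 1, 233.9 kb from 11246455 to 11480375, held 1 region of replicate 2 and 4 of the combined list. Without read counts, a stretch with no region cannot be told from one with too few reads to call.

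Over the 21 full steps of 1 Mb, which end at 22000000 and so before the inner limit, the cover had broad highs and lows. It was lowest from 10000001 to 11000000, at 5.00% ± 1.29 (SD, n = 2; 5.91% and 4.09%), and next lowest from 13000001 to 14000000, at 6.49% ± 0.936. It was highest from 21000001 to 22000000, at 19.8% ± 0.782, with 19.2% in replicate 1 and 20.3% in replicate 2. Past that bin, the 100 kb windows from 22000001 to 22500000 were covered at 9.47%, 1.76%, 16.0%, 8.70% and 22.6% (mean of the replicates). The next highest bins, farther from the inner limit, had 15.8% ± 0.760 from 16000001 to 17000000 and 15.1% ± 2.16 from 9000001 to 10000000. The bin of 9000001 thus stood directly before the emptiest bin of the arm. Cover at the tip side, from 1000001 to 2000000, was 13.8% ± 0.513.

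**Figure D2:**
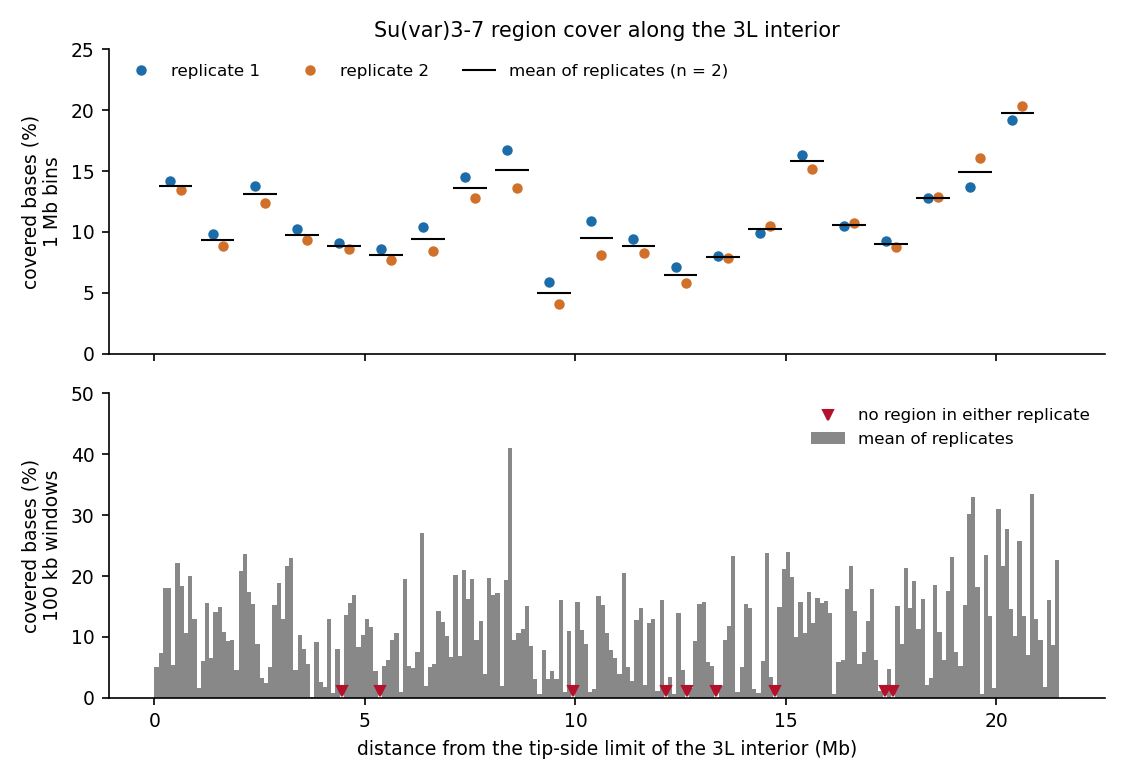
Share of bases covered by Su(var)3-7 regions (%) against the distance from the tip-side limit of the 3L interior (Mb): top, 1 Mb bins with both replicates as points and their mean as a line; bottom, the mean of the replicates in 100 kb windows, with triangles at the 9 windows that hold no region in either replicate. The 1 Mb means run from 5.00% to 19.8%, and the tallest 100 kb bar is at 41.0%.

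The replicates changed order along the arm. Replicate 1 covered more than replicate 2 in 16 of the 21 full bins of 1 Mb, and replicate 2 more in 5. Of these 5, the bins starting at 15000001, 17000001 and 19000001 differed little (9.87% and 10.5%, 10.5% and 10.7%, 12.8% and 12.9%). Those starting at 20000001 and 21000001 had 13.7% and 16.1%, and 19.2% and 20.3%, in replicates 1 and 2. The widest difference between replicates in a window of 100 kb was at 20400001, with 26.2% in replicate 1 and 39.6% in replicate 2. Outside the 3L interior, the 2 Mb at the centromere end were covered at 32.4% in replicate 1 and 43.9% in replicate 2. The tip was covered at 17.2% and 15.1%. Whether depth or the input differs between the replicates could not be measured.

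Long regions gathered on the inner side of the interior. The last 3 Mb before the inner limit held 12 of the 31 regions of at least 5 kb in replicate 1 (38.7%) and 20 of 39 in replicate 2 (51.3%). The same 3 Mb held 17.3% and 18.5% of all regions of the 3L interior in replicates 1 and 2. In the combined list 32 of 84 long regions (38.1%) and 19.0% of all 1316 lay there. These shares were not tested.

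The 5 longest members show how such regions break up. The longest, 3L from 21177384 to 21190846 (13.5 kb, score 0.556), met 3 regions of replicate 1 and 4 of replicate 2, which covered 76.9% and 85.5% of it. The second, from 16033499 to 16046646 (13.1 kb, score 0.947), was 1 unbroken region in both replicates, from 16032784 to 16046687 in replicate 1 and from 16033629 to 16046344 in replicate 2. This was the longest region of the 3L interior in either replicate list. The third, from 21814572 to 21826928 (12.4 kb, score 1.05), met 2 regions of replicate 1 and 1 of replicate 2. The fourth, from 21034683 to 21045391 (10.7 kb, score 1.15), met 2 of each, and the fifth, from 8441120 to 8451737 (10.6 kb, score 0.882), met 4 and 3. So 3 of the 5 lay between 21000001 and 22000000, a bin that held 88 of the 1316 combined members. This count was not tested.

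The 10 strongest members were single regions of less than 3 kb in both replicates. The highest score of the combined 3L members, 3.85, belonged to 3L from 3615338 to 3617751. Replicate 1 placed this region from 3615353 to 3617734 with a score of 3.97, and replicate 2 from 3615368 to 3617750 with 3.71, and it ranked 4 in each whole list. It stood alone, 72215 bp after the preceding combined region and 134197 bp before the next. The second, from 2850741 to 2853176, had 3.84 in the combined list, 4.08 in replicate 1, where it was the highest of all 6780 regions, and 3.64 in replicate 2. In contrast to the first, its next neighbour was 2053 bp away.

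The other eight of the 10 highest members found in both replicates had combined scores from 3.02 down to 2.45. They started at 2243057 (3.02), 14103583 (3.01), 17588426 (2.94), 2530332 (2.91), 5861766 (2.85), 8741018 (2.77), 10890807 (2.47) and 18452477 (2.45). All 10 met exactly 1 region of each replicate, and the replicate regions covered between 81.7% and 100% of them. Their lengths lay between 2271 and 2932 bp, all above the median of 2152 bp of the combined members and far below the longest of them. The one that starts at 10890807 borders an empty stretch, with 106891 bp to the next combined region. Of the 10, 4 started within the first 3 Mb of the interior, at 2243057, 2530332, 2850741 and 3615338. The 1 Mb bins that make up this stretch, from 1000001, 2000001 and 3000001, held 74, 62 and 66 of the 1316 combined members. These counts were not tested.

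Most regions of either replicate were met in the other by at least 1 bp. In replicate 1 this held for 811 of 986 regions, 82.3% (exact 95% interval 79.7 to 84.6%), where over all sequences 83.3% were. In replicate 2 it held for 805 of 929, 86.7% (84.3 to 88.8%), where over all sequences 81.2% were. The 3L share was near that of the whole list in replicate 1 and above it in replicate 2, and this difference was not tested. By bases, 1.87 of the 2.88 Mb covered by either replicate were covered by both (65.0%), which was 76.4% of replicate 1 and 81.3% of replicate 2. These intervals cover counting error only, and regions of a library are not independent of each other.

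Positions of matched regions differed little. For 686 combined members that met exactly 1 region of each replicate, which in turn met no other such member, the midpoints in replicates 1 and 2 lay a median of 84.8 bp apart, and the 90th percentile was 584 bp. Starts differed by a median of 91.5 bp and ends by 105 bp. In 236 of the 686 (34.4%) the starts were at most 50 bp apart. The replicate 1 region was the longer in 417 and the replicate 2 region in 267, with median lengths of 2241 and 2177 bp. Lengths had a rank correlation of 0.677 over these pairs.

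Scores and local cover also went together between the replicates. The rank correlation of scores was 0.788 over the 811 regions of replicate 1 that met one of replicate 2, and that of covered share was 0.935 over the 215 windows (Spearman's rho, given as descriptions). For scores, the highest score among the replicate 2 regions met was taken, and 1 region of replicate 2 could serve several of replicate 1. A reciprocal overlap of 50% gave 0.837 over 729 regions. The points of each correlation share the same pair of libraries and the same caller. The median difference between replicates in a window was 1.67 percentage points and the largest 13.4.

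**Figure D3:**
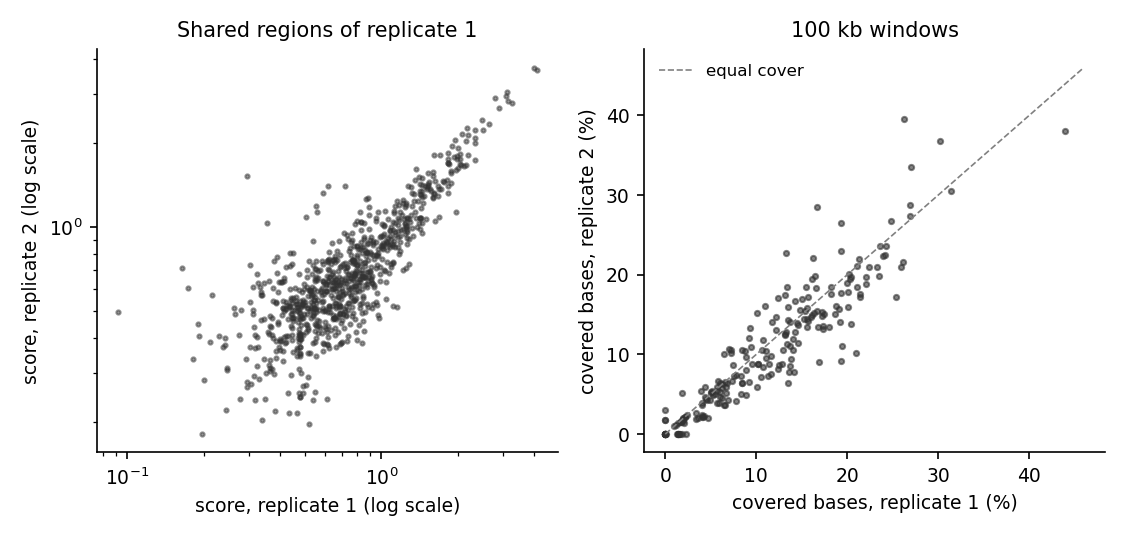
Left, score in replicate 2 against score in replicate 1 (both log scales) for the 811 regions of replicate 1 on the 3L interior that meet a region of replicate 2; right, covered bases (%) in replicate 2 against replicate 1 for the 215 windows of 100 kb. Both clouds run along the diagonal, with rank correlations of 0.788 and 0.935.

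Regions of 1 replicate alone were weak and short, with a few exceptions. The 175 regions of replicate 1 without a partner had a median score of 0.449 and a median length of 1814 bp, where the shared ones had 0.696 and 2266 bp, and the highest unshared score was 0.776. The 124 of replicate 2 had 0.472 and 1638 bp, where the shared ones had 0.617 and 2200 bp. One of them stood far above the rest: 3L from 19115768 to 19117271, 1504 bp long, had a score of 2.65 in replicate 2. Replicate 1 had no region within 13922 bp of it, and the combined list did not take it up, its nearest region being 13843 bp away. It was singled out after its score had been seen.

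Nearly all replicate regions had a counterpart in the combined list, with 978 of 986 (99.2%) in replicate 1 and 913 of 929 (98.3%) in replicate 2, where 99.3% and 98.5% did over all sequences. It was made from the replicates, so this is not independent of them. Of its 1316 members on the 3L interior, 770 met a region of both replicates, which is 58.5% (exact 95% interval 55.8 to 61.2%), where 53.2% of all combined regions did. Another 161 (12.2%) met replicate 1 alone and 102 (7.75%) replicate 2 alone, where the shares over all sequences were 10.9% and 11.5%. The last 283 (21.5%; 19.3 to 23.8%) met neither, where 24.4% did over all sequences.

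The members in both replicates carried most of the sequence. They held 2.45 Mb, 73.3% of the bases of all members, with a median length of 2558 bp and a median score of 0.612. The members in neither replicate held 11.2% of the bases, with a median length of 1278 bp and a median score of 0.326. Of those in neither, 151 (53.4%) were shorter than the shortest replicate region, a share that was not taken over all sequences. Their median distance to the nearest region of either replicate was 2977 bp, with 68 within 1 kb of one and 40 more than 20 kb away. Members in replicate 1 alone or replicate 2 alone had median scores of 0.302 and 0.319.

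Sharing followed the score in a step. The combined list and its score were made from the replicates, so score and sharing are not independent and the climb is a description only. With the members ordered by combined score and cut into 4 groups of 329, 16.4% of the lowest group (0.0268 to 0.319) met both replicates, then 32.2% (0.320 to 0.414), 87.8% (0.415 to 0.688) and 97.6% (0.689 to 3.85). The widest step lay between the second and the third group, at the median score of the combined members. Shares by score were not taken over all sequences, so the step cannot be called particular to 3L. Of the highest group 7 members met neither replicate. The strongest of them were 2068552 to 2069666 with a score of 1.65, 11324990 to 11326097 with 1.15 and 5457075 to 5458075 with 1.01. All of these 3 were shorter than the shortest replicate region, at 1115, 1108 and 1001 bp.

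**Figure D4:**
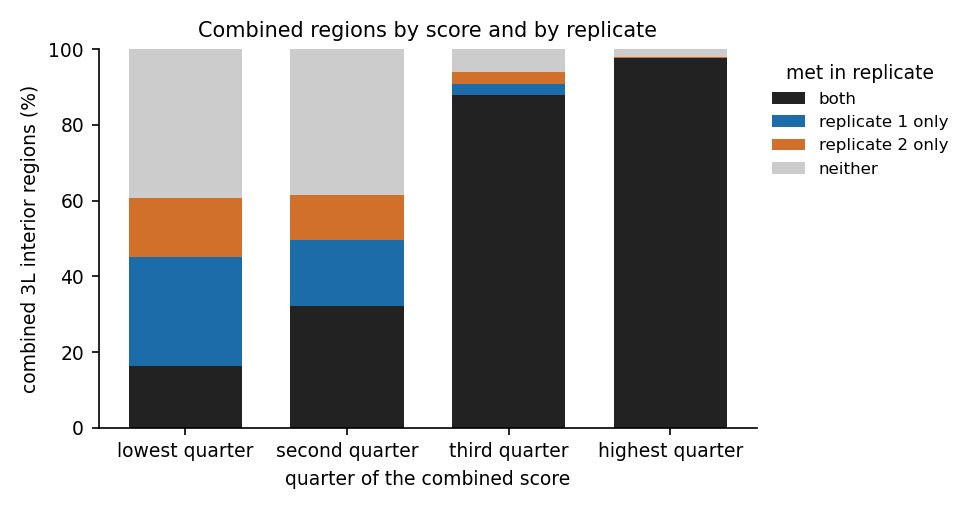
Share (%) of combined 3L interior regions that met a region of both replicates, of replicate 1 only, of replicate 2 only or of neither, in 4 groups of 329 by combined score from low to high. The share in both climbs over the groups through 16.4%, 32.2%, 87.8% and 97.6%. Score and sharing come from the same libraries, and such shares were not taken over all sequences.

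Set beside other arms under the same limits, 3L was close to the autosomal arms 2L and 3R and sparser than X. The right arm of the second chromosome was not compared. The covered share was 11.0% ± 0.486 on 3L, against 10.9% ± 0.528 on 2L, 10.2% ± 0.910 on 3R and 15.3% ± 0.243 on X (SD, n = 2 each). Within replicates, 3L minus X was -3.73 points in replicate 1 and -4.77 in replicate 2, with a mean of -4.25 ± 0.729. 3L minus 2L was 0.157 and 0.216 points in replicates 1 and 2 (0.186 ± 0.0415), and it was -0.321 when only the upper 50% of each list by score was kept and 1.01 when 1 Mb in place of 2 Mb was left out at the centromere end. 3L minus 3R was 0.585 and 1.18 points in replicates 1 and 2 (0.885 ± 0.424), and 0.369 and 1.65 under those settings. Each of the 3 differences gave p = 0.5 when its sign was flipped in all ways over the replicates (exact permutation test, two-sided), which is the smallest p that 2 replicates allow.

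By median the gaps were longer on 3L than on 2L and X, although regions were more frequent on 3L than on 2L. Density was 44.4 ± 1.87 regions per Mb on 3L, against 41.6 ± 3.11 on 2L, 41.4 ± 3.29 on 3R and 56.5 ± 0.582 on X (SD, n = 2 each). It was higher on 3L than on 2L by 1.94 regions per Mb in replicate 1 and 3.69 in replicate 2. The longest gap was 233921 bp on 3L, against 284743 bp on 2L, in replicate 1, and 310953 bp on 3L, against 487682 bp on 2L, in replicate 2. The median gap was 8420 ± 50.6 bp on 3L, against 6991 ± 561 bp on 2L, 8962 ± 933 bp on 3R and 5352 ± 193 bp on X. The median gap was longer on 3L than on 2L in both replicates, by 1790 and 1068 bp (exact permutation p = 0.5, n = 2). The gaps of 3L had a coefficient of variation of 1.59 ± 0.0669, against 1.80 ± 0.0664 on 2L, 1.55 ± 0.00617 on 3R and 1.79 ± 0.0461 on X. Long regions of at least 5 kb were 3.67% ± 0.745 of the regions on 3L, against 5.59% ± 1.78 on 2L, 3.52% ± 0.829 on 3R and 7.70% ± 0.243 on X. Median lengths differed by less than the SD between replicates from 2L and X, with 2167 ± 17.0 bp on 3L, against 2172 ± 34.6 bp on 2L, 2154 ± 18.4 bp on 3R and 2166 ± 1.41 bp on X.

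**Figure D5:**
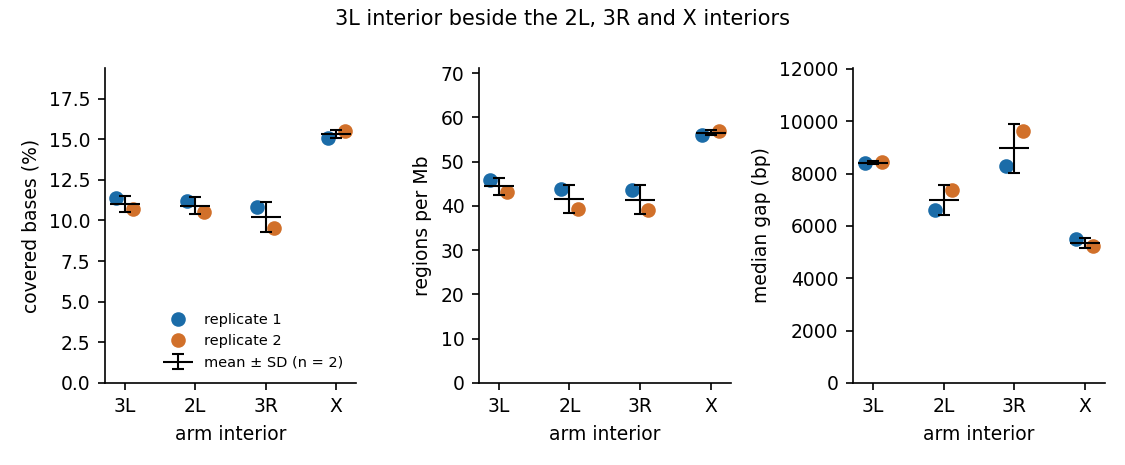
Covered bases (%), regions per Mb and median gap (bp) on the interiors of 3L, 2L, 3R and X, with both replicates as points and the mean ± SD (n = 2) as bars. X stands highest in cover and density, at 15.3% and 56.5 regions per Mb, against 11.0% and 44.4 on 3L.

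Sharing with the replicates was alike on the autosomal arms compared, 3L, 2L and 3R. Members found in both replicates were 58.5% of the combined regions on 3L (exact 95% interval 55.8 to 61.2%), against 58.6% on 2L (55.7 to 61.5%), 58.7% on 3R (56.1 to 61.3%) and 52.1% on X (49.6 to 54.6%). The share found in neither was 21.5% on 3L, against 20.8% on 2L, 20.0% on 3R and 26.0% on X. Within the list of replicate 1 the median score was 0.623 on 3L, against 0.621 on 2L, 0.602 on 3R and 0.730 on X. Within that of replicate 2 it was 0.581 on 3L, against 0.579 on 2L, 0.573 on 3R and 0.696 on X.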

How the data were processed

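The values are 3 deposited lists of enriched regions, 1 per ChIP replicate and 1 that combines them, with a start, an end and a score per region. Per the file headers, coordinates are those of FlyBase release 5, and Bowtie 0.12.7, a short-read aligner, is named in the submitters' processing notes. The region caller, its threshold, the treatment of repeated sequence and the scale of the deposited score are not stated in any source used here, and they set which weak or repetitive places could be called. Positions were used as the deposited lists give them (1-based).

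Regions were chosen by their start. Overlap meant at least 1 bp with any 3L region of the other list, and covered bases were the union of a list's regions. Intervals on shares are exact (Clopper-Pearson) at 95%. Arms were compared within replicates by an exact sign-flip permutation test. The interval functions were tested on simulated regions. Python 3.11.15, numpy 2.4.6, pandas 2.3.3 and scipy 1.17.1 were used.

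The regions named are the 10 of highest score found in both replicates, the 5 longest, the 5 longest gaps, the 5 fullest and the empty windows of 100 kb, the regions at the limits and the 3 of highest score found in neither replicate; others were chosen after their values were seen. The stretch of the arm and these rules were chosen with earlier results of these data known. Gene names and sequences were not attached, since the only gene table used was one of release 6, whose positions differ.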

Additional observations from a re-analysis of the deposited data

How the results depend on the processing

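No paired analysis was possible because the groups that share replicate numbers are ChIP and input, and no input list was used; the arms were compared within each ChIP replicate. Of 54 values under other settings, 24 stayed within their limit: the SD between replicates, the 95% interval for the share of combined regions, 1.5 times for counts and 0.05 for rank correlations. The difference between 3L and 2L changed sign when only the upper 50% of each list by score was kept, to -0.321 points. That setting also gave 399 regions, 5.53% covered, 18.5 regions per Mb, a median gap of 28630 bp, a median length of 2508 bp, 0.369 points against 3R and -5.43 against X, 37 empty and 0 dense windows, an empty stretch of 335647 bp, 80.5% sharing between replicates and a window correlation of 0.836; it keeps fewer regions by construction. Merging neighbours within 1000 bp gave 39.2 regions per Mb, a median gap of 10328 bp, a median length of 2231 bp and 0.144 points against 2L. Leaving out 1 Mb at the centromere end gave 12.1% covered, a median gap of 7886 bp, and 1.01, 1.65 and -2.93 points against 2L, 3R and X; keeping the tip gave 0.0904 points against 2L. Windows of 50 kb gave 75 empty and 15 dense ones, and windows of 200 kb gave 0 and 0. These are raw counts, over more windows at 50 kb and fewer at 200 kb than the 215 of 100 kb. The limit of 1.5 times was applied to them after scaling for the number of windows. Counting a combined region as found only where replicates cover 50% of it gave 55.5% in both, keeping combined regions of at least 1303 bp 67.6%, and a reciprocal overlap of 50% gave 76.2% sharing between replicates. Leaving out a replicate gave 929 to 986 regions, 10.7 to 11.4% covered, 43.1 to 45.8 regions per Mb, median gaps of 8384 to 8456 bp, median lengths of 2155 to 2179 bp, 0.157 to 0.216, 0.585 to 1.18 and -4.77 to -3.73 points against 2L, 3R and X, 12 to 17 empty windows, 3 to 5 dense windows and a longest empty stretch of 233921 to 310953 bp. The cause of the change of sign was not tested.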
